A study of Rattus norvegicus with 241 samples.

Results

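Mature luminal (ML) cells of Sprague Dawley (SD) rats were taken from single-cell RNA libraries of sorted mammary luminal cells and were chosen by the unique molecular identifiers (UMIs, 1 per captured transcript) of 9 genes. A cell was counted as ML when its UMIs of CITED1, PRLR, NPTX2, AGTR1A and FCGBP summed to at least 2 and to at least 4 times its UMIs of KIT, ELF5, BTN1A1 and MUC15, which mark luminal progenitor (LP) cells. This rule gave 6881 ML cells among the 23784 cells of 9 libraries (28.9%), in a series of 160052 cells and 39 libraries. The mirrored rule gave 11321 LP cells in the same libraries. The 9 genes chose the cells, so their levels are given as a description without a test.

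The study asked how short treatment with an inhibitor of the TGFβ receptor (TGFBRi) before adulthood alters mammary cells. Each library held CD24+ CD29low luminal cells of 1 virgin SD rat, depleted of CD31+ and CD45+ cells by sorting. TGFBRi rats (replicates 9 to 14) had received LY2157299, a TGFβ type I receptor kinase inhibitor, by oral gavage at 75 mg/kg, 2 doses a day for 10 days from 24 days of age. Vehicle rats (replicates 1 to 3) had received the carrier on the same schedule, and all were taken on the day of the last dose (day 0). ML cells were found by the same rule in sorted luminal cells of 3 vehicle and 3 TGFBRi ACI rats dosed from 35 days of age, and in whole glands of 3 vehicle and 6 TGFBRi SD rats dosed from 24 days. The rat was the replicate in every test. The labels give no oestrous stage and no preparation day.

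ML cells line the ducts and carry the receptors for ovarian hormones. They pass the hormonal signal on to neighbouring cells through secreted factors such as AREG, a ligand of the EGF receptor, and WNT4. LP cells lack most of these receptors and give rise to the alveolar cells that make milk. TGFβ binds a pair of kinase receptors, TGFBR1 and TGFBR2, that phosphorylate SMAD proteins, and SMAD7, SKI and SKIL are feedback inhibitors that the pathway itself induces.

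The rats gave 141 to 1184 ML cells each, with a median of 7417 to 13674 UMIs per cell. At 3000 UMIs per cell, the median ML cell of a vehicle rat showed 1314 to 1342 genes and that of a TGFBRi rat 1128 to 1282, without overlap. Ribosomal protein genes took 15.0 to 18.2% of ML UMIs in vehicle rats and 18.9 to 22.1% in TGFBRi rats. These shifts run with treatment, and their part in the results was not tested. The libraries shared 0 to 7 cell barcodes per pair. A UMI of PTPRC, the pan-leukocyte marker, was found in none of the ML cells, since the authors had filtered on it. A UMI of a basal keratin was found in 529 ML cells (7.69%), and 377 (5.48%) had doublet scores among the highest of their library.

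Most hormone receptor and lineage markers that the rule did not use were higher in ML than in LP cells, while some general luminal markers were not. ESR1, the oestrogen receptor, was at 7.52 to 56 CPM (a gene's summed UMIs scaled to the total of all genes) in ML cells of the 9 rats and at 0 to 2.23 CPM in LP cells. PGR, the progesterone receptor, was at 10.6 to 147 CPM against 0.142 to 1.35 CPM. WNT4, a progesterone target, was at 115 to 328 CPM against 5.12 to 49.1 CPM. All of these ranges were apart. Over the 9 rats, the median ML to LP ratio, with 1 CPM added to each side, was 12.1 for ESR1, 18.8 for PGR and 14.5 for WNT4. The ratio was 14.3 for TBX3, a transcription factor of hormone-receptor-positive cells, 18.2 for the luminal factor SPDEF, 5.08 for FOXA1, a pioneer factor for the oestrogen receptor, and 3.54 for GATA3, a regulator of the whole luminal lineage. CLDN4, a tight junction claudin among the check markers, was instead higher in LP cells in 9 of 9 rats, with a median LP to ML ratio of 2.41. KRT8 was higher in LP cells in 7 of 9 rats, and KRT19 was higher in ML cells in 4 of 9. Between treatments, 2 of 12 check markers rose (KRT8 and KRT18) and 2 fell (FOXA1 and TBX3), with values given further on. This is near the 31.8% of all genes tested that were called. Without 1 vehicle rat 1 rose and 1 or 2 fell.

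With the 9 rule genes left out, the genes with the largest ML to LP ratio were led by CLCA1, a secreted protein, at 533 to 10617 CPM in ML and 1.75 to 51.1 CPM in LP cells, with a median ratio of 202. AREG followed, at 759 to 5875 CPM against 2.96 to 17.7 CPM and a ratio of 161. The next were BCHE, butyrylcholinesterase, at 91.2, SERPINB9, a granzyme B inhibitor, at 80.6, AADAT, an aminotransferase of tryptophan metabolism, at 76.5, and S100A6, a calcium-binding protein, at 64.5. DSP, which encodes desmoplakin of the desmosome, had a ratio of 53.8 and the surface glycoprotein CD200 one of 44.9. On the LP side stood milk genes, with an LP to ML ratio of 23.2 for CSAP1, 21.5 for the casein CSN2, 18.6 for whey acidic protein and 12.9 for the lactose synthase subunit LALBA. TNFRSF11A, the receptor for RANK ligand, was 7.58 times higher in LP cells, VDR, the vitamin D receptor, 4.5 times and the ligand TGFB2 10.7 times. Among 8999 genes over 5 CPM in a class, 79 (0.878%) were past 8-fold higher in ML cells in every rat. Genes that vary together with the 9 rule genes had to differ between the classes, so no test was made.

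**Figure D1:**
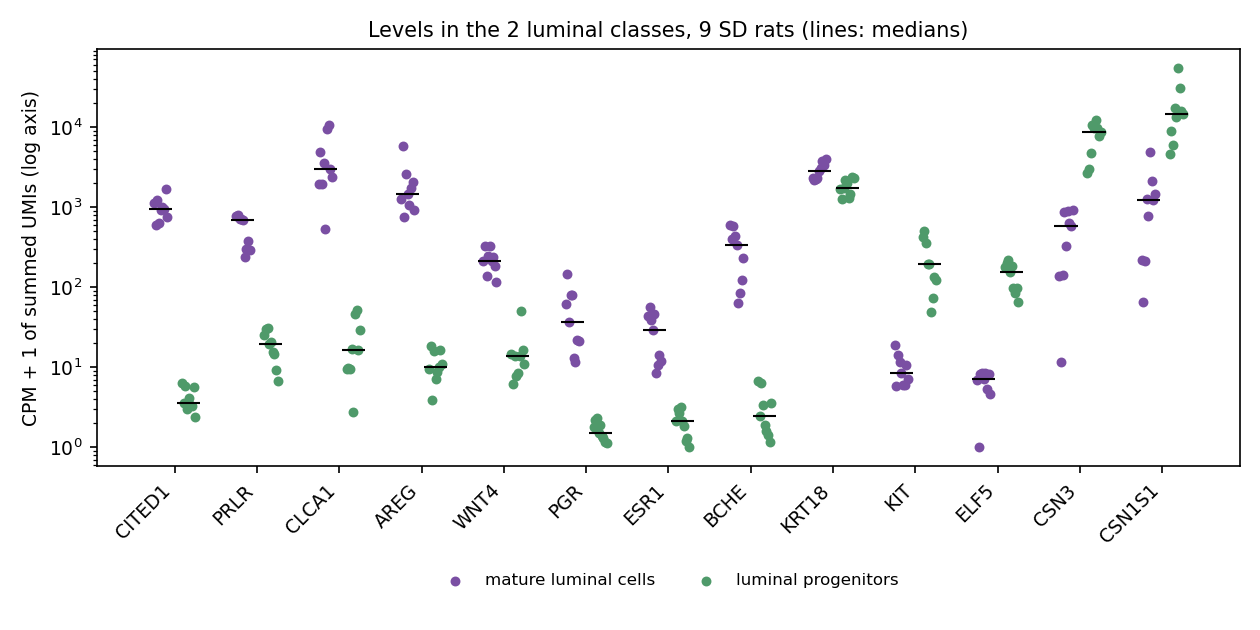
CPM plus 1 (log axis) of 13 genes in ML and LP cells of the 9 sorted SD luminal libraries, 1 point per rat and a line at each median. ESR1, PGR and AREG lie higher in ML cells and CSN3 and KIT lower in all 9 rats.

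AREG carries one of the largest ML to LP ratios, so its promoter is shown (RefSeq, GRCr8, chr14:17265592-17265891, minus strand, 250 bases before to 50 after the transcript start). Capitals mark TGACGTCA, the full cyclic AMP response element, found by a letter search at base 160 on both strands, since the motif is its own reverse complement. It stood in 612 of 33469 promoters of this length (1.83%).
AREG: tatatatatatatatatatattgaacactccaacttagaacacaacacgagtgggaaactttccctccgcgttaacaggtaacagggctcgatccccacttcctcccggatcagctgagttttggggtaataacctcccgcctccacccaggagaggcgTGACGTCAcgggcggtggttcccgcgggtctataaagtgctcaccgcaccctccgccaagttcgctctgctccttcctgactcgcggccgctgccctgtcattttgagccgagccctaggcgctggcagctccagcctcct

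The edge of the rule held few cells. An ML sum of exactly 2 was found in 209 members (3.04%) and of 3 in 246. Just outside lay 347 cells with an ML sum of 1 and no LP UMI, and 232 cells with an ML sum 3 to 4 times the LP sum. No LP UMI at all was found in 5879 members (85.4%). Most members showed several of the 5 ML genes: 2 of them were detected in 33 to 67.3% of a rat's ML cells, 3 in 19.3 to 54.1%, and all 5 in 0 to 0.873%.

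Treatment comparisons of single genes below use CPM scaled by TMM (trimmed mean of M-values). Sums over a list of genes, and CPM in LP cells, carry no such scaling. The rule genes themselves stood as follows, in TMM-scaled CPM. CITED1, a transcriptional coactivator of the oestrogen receptor, was at 1019, 508 and 1089 CPM in vehicle rats 1, 2 and 3 and at 657, 976 and 1803 CPM in the lowest, median and highest TGFBRi rat. PRLR, the prolactin receptor, was at 684, 687 and 629.5 CPM and 266, 376 and 724 CPM. The groups overlapped for both. AGTR1A, an angiotensin receptor, was at 25.7, 28.4 and 61.7 CPM and 17.3, 73.7 and 146 CPM, also with overlap. NPTX2, a neuronal pentraxin, was at 6.02, 3.21 and 9.75 CPM and 3.04, 5.74 and 15.2 CPM, and FCGBP, a mucus-associated protein, at 54.3, 37.1 and 29.1 CPM and 35.6, 63.6 and 69.8 CPM. The LP genes KIT, ELF5, BTN1A1 and MUC15 summed in ML cells to 10.8 to 39.8 CPM in vehicle and 23.4 to 40.9 CPM in TGFBRi rats, without TMM scaling. In LP cells they summed to 1052 to 1272 CPM in vehicle and 362 to 785 CPM in TGFBRi rats, without overlap.

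ML cells made up 25.5, 15.4 and 23.6% of the library in vehicle rats 1 to 3. In TGFBRi rats 9 to 14 they made up 21.1, 27.8, 33.8, 29.8, 52.6 and 27.9%. The groups overlapped, with means of 21.5 ± 5.37% (SD, n = 3) and 32.2 ± 10.9% (SD, n = 6). The difference of 10.6 percentage points had p = 0.119 in a two-sided exact permutation test over rats, whose smallest possible p was 0.0238. With ML and LP cells as the denominator, the means were 25.6 and 43.1% and p = 0.0952 by the same exact test. Cells of neither class made up 7.55 to 18.9% of vehicle and 15.0 to 42.1% of TGFBRi libraries. Both shares rest on rule genes that themselves differed between groups in LP cells, and the part of this in the shares was not tested. The highest rat, TGFBRi 13, set much of the size: without it the difference was 6.54 points, and without TGFBRi 9 it was 12.9 points with exact p = 0.0357. With cells thinned to 3000 UMIs the means were 20.8 and 28.0% (exact p = 0.286).

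**Figure D2:**
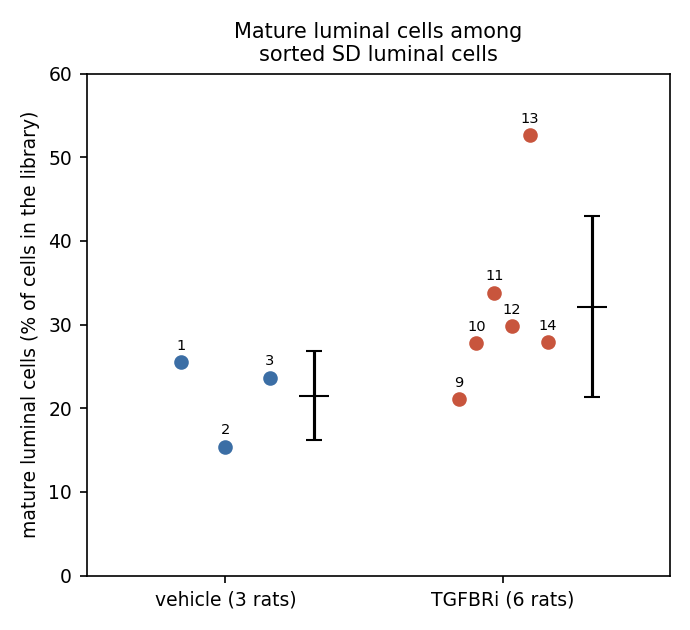
ML cells as a percent of all cells of each sorted SD luminal library, 1 point per rat with its number, and bars for mean ± SD. Vehicle rats lie at 15.4 to 25.5% and TGFBRi rats at 21.1 to 52.6%, so the groups overlap.

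Of 13365 genes tested in ML cells, 4248 differed between TGFBRi and vehicle rats (31.8%), by edgeR on UMIs summed per rat, where an adjusted p (Benjamini-Hochberg) up to 0.1 passed. Of these, 2168 (16.2%) were higher and 2080 (15.6%) lower. Group values did not overlap for 3308 of the genes tested (24.8%) and for 2997 of the called genes (70.6%). The count rests on few vehicle rats. It was 1417 without vehicle 1 (10.7% of genes tested), 2315 without vehicle 2 (17.4%) and 2162 without vehicle 3 (16.3%). Among these calls 719, 1116 and 1119 genes were higher and 698, 1199 and 1043 lower. The count was 1869 (14.5%) without TGFBRi rats 11 and 12, whose sums lay farthest from those of the vehicle rats, a setting chosen after the data were seen. For 110 called genes, most of them named in the text, the call was followed through the alternatives. Of these, 54 passed in every alternative tried, and 48, 35 and 37 did not pass without vehicle 1, 2 or 3. Some named genes, among them JAG1, NUMB, LSS, CYP51 and ACACA, were not followed in this way. For most gene lists the range of the count with vehicle 1, 2 or 3 left out in turn is therefore given too. A list with about 31.8% of its genes called stands at the level of all genes. List counts with rats left out stand against the lower shares of the same setting, so a smaller count there is not by itself a loss. Fold changes below are log2 values, TGFBRi over vehicle, with the standard error from DESeq2 and the adjusted p from edgeR.

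**Figure D3:**
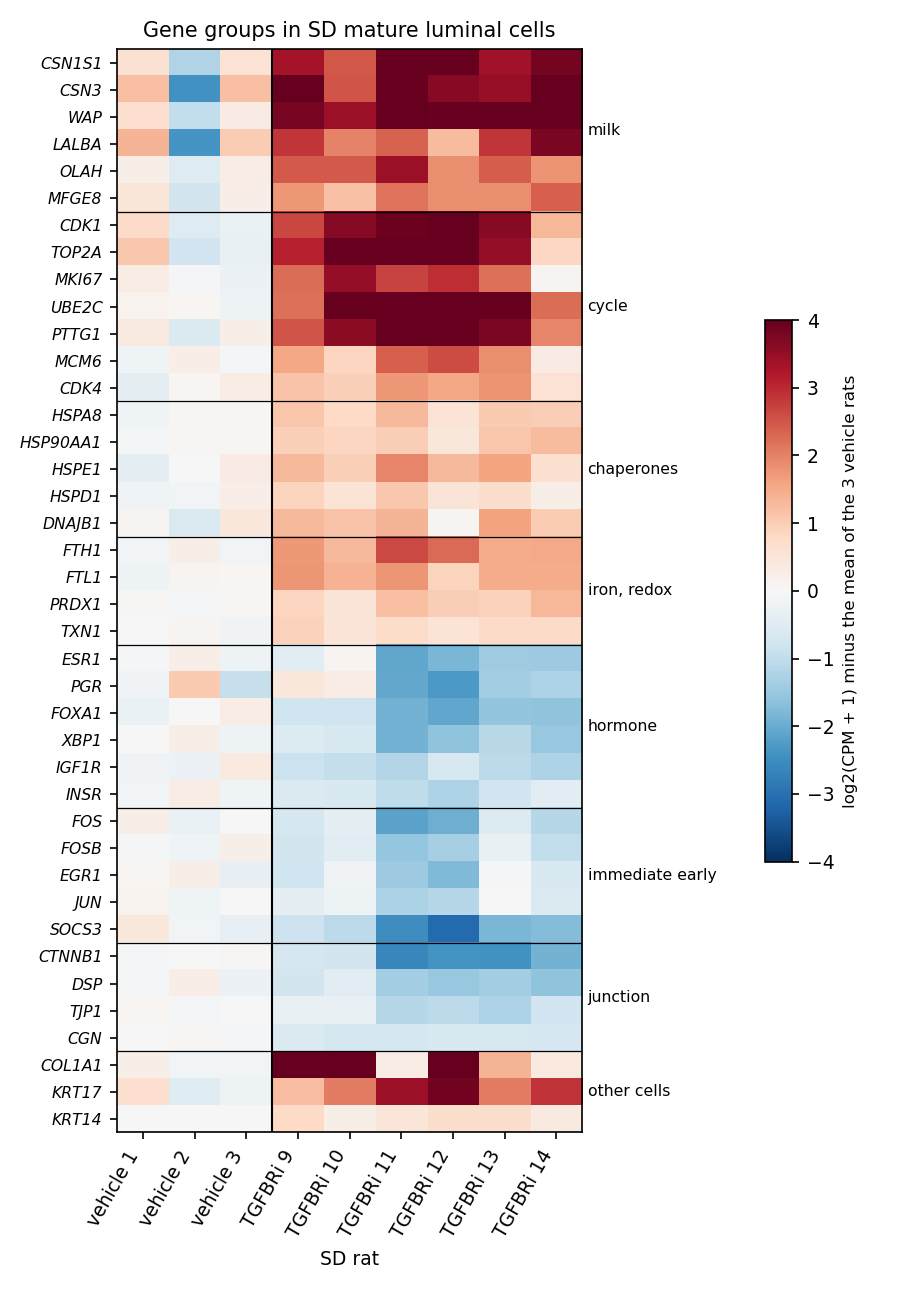
Heat map of 40 genes in the ML cells of 9 rats, as log2(CPM + 1) minus the mean of the 3 vehicle rats, with the colour scale ending at -4 and 4. The milk, cycle, chaperone and iron or redox genes drawn are mostly above the vehicle mean in the TGFBRi rats. The hormone, immediate early and junction genes drawn are mostly below it. The rows were picked and do not stand for their lists. Of 23 junction genes tested 5 rose and 6 fell, and 12 of 31 immediate early genes had a log2 fold change above 0.

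Mitotic genes were among the 10 largest increases. UBE2C, a ubiquitin-conjugating enzyme of mitotic exit, was at 0.512, 0.458 and 0.188 CPM in the vehicle rats and at 5.37, 26.8 and 42 CPM in the lowest, median and highest TGFBRi rat (log2 5.81 ± 0.97, adjusted p = 0.0116). PTTG1, the securin that holds back sister chromatid separation, went from 0.896, 0 and 0.75 CPM to 4.72, 18.1 and 30.4 CPM (log2 4.65 ± 0.70, adjusted p = 0.0116). Neither gene overlapped between groups. KIF20A, a mitotic kinesin, SPC25, a kinetochore protein, and SAPCD2 had 1 to 3 UMIs over all vehicle rats, so the ratio of summed CPM carries a wide counting interval. It was 40.1 (exact 95% counting interval 11 to 332) for KIF20A, 38.1 (exact 95% counting interval 10.5 to 316) for SPC25 and 43.9 (exact 95% counting interval 12.1 to 364) for SAPCD2.

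For others of the 10 largest increases, single rats set much of the size. FABP3, a fatty acid carrier of milk-forming epithelium, was at 0.128, 0 and 0.375 CPM and 3.66, 7.57 and 123 CPM, a ratio of 181 (exact 95% counting interval 61.7 to 876). LMO1, a LIM-domain transcriptional regulator, had a ratio of 32.8 (exact 95% counting interval 8.98 to 272) and WFDC3, a whey acidic protein family member, one of 38.4 (exact 95% counting interval 6.79 to 1527). These groups did not overlap, but rat 12 was far above the rest for LMO1, and rat 11 for FABP3 and WFDC3. COL1A1, a fibroblast collagen, was also among the 10.

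Among decreases, MRPL1, a protein of the mitochondrial ribosome, was at 19.98, 12.8 and 19.9 CPM in vehicle and at 1.15, 1.9 and 2.56 CPM in TGFBRi rats (log2 -3.26 ± 0.30, adjusted p = 0.000509). CTTN, the actin-binding protein cortactin, was at 13.1, 7.33 and 9.56 CPM and 0.27, 0.673 and 1.83 CPM (log2 -3.45 ± 0.49, adjusted p = 0.00636). TLL1, a metalloprotease that processes procollagen and releases BMP ligands, was at 43.3, 18.8 and 72.9 CPM and 0.479, 7.22 and 17.4 CPM (log2 -2.63 ± 0.85, adjusted p = 0.0208). All TGFBRi rats lay below all vehicle rats for these genes. The rest of the 10 were TSPOAP1 (-2.52), CCDC39, a cilium assembly protein (-2.43), HMGB3, a chromatin protein (-2.39), FBXO10, an F-box protein (-2.33), the gene model NEWGENE-1359268 (-2.64), PPIAL4D (-2.50) and MYH9L1 (-2.43), all with adjusted p of 0.1 or less. PPIAL4D and MYH9L1 resemble other genes closely, so reads may be split among copies and their values are uncertain.

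Some genes of the pathway that the inhibitor acts on changed, in lists with no clear excess of called genes. Of 19 ligands, receptors and SMADs tested, 2 rose and 5 fell (median log2 -0.21), and of 36 target and feedback genes 2 rose and 6 fell (median -0.12). The called genes of these lists were thus 7 of 19 and 8 of 36, against 31.8% of all genes tested. Without 1 vehicle rat, or without TGFBRi 11 and 12, 0 or 1 of the ligands, receptors and SMADs rose and 1 or 2 fell. Of the targets 0 or 1 rose and 4 or 5 fell, SMAD7, SKI, SKIL and BHLHE40 each time among them. SMAD7, the inhibitory SMAD, was at 71.7, 68.8 and 70.9 CPM in vehicle rats and at 28.6, 33.5 and 44.2 CPM in the lowest, median and highest TGFBRi rat (log2 -1.02 ± 0.18, adjusted p = 0.00995). SKI and SKIL, corepressors of SMADs, were at 23.6, 13.3 and 20.1 CPM and 137, 111 and 93.2 CPM in vehicle rats and at 2.89, 3.57 and 9.4 CPM and 26.4, 45.6 and 78.3 CPM in TGFBRi rats, changes of -1.94 ± 0.41 (adjusted p = 0.0138) and -1.32 ± 0.32 (adjusted p = 0.0174). BHLHE40, a transcriptional repressor that TGFβ induces, went from 171, 135 and 173 CPM to 35.9, 51.4 and 77.4 CPM (log2 -1.58 ± 0.25, adjusted p = 0.0084). In all 4 genes every TGFBRi rat was below every vehicle rat.

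Of the receptors, TGFBR2, the ligand-binding type II receptor, was at 27.1, 19.7 and 25.1 CPM and 5.19, 8.68 and 15.4 CPM (log2 -1.42 ± 0.33, adjusted p = 0.0153). TGFBR1, the type I receptor that the inhibitor targets, was at 38.3, 33 and 28.3 CPM and 22.7, 28.9 and 42.8 CPM, with overlap and a change of -0.17 ± 0.24 that did not pass the test (adjusted p = 0.576). The share of ML cells with a TGFBR1 UMI at equal depth, given further on, was lower, but that share is not TMM-scaled. At that depth TGFBRi ML cells also showed fewer genes in all, and the part of this was not tested. SMAD4, the common partner of receptor-activated SMADs, was at 48.4, 49.96 and 44.8 CPM and 11.1, 13.1 and 38.6 CPM (log2 -1.20 ± 0.43, adjusted p = 0.0626), without overlap. BMPR2, a BMP receptor, gave -0.51 (adjusted p = 0.0421), and ID1, a BMP and TGFβ target, was at -0.90 (adjusted p = 0.0688). In the other direction, TGFB2 rose from 2.56, 0.458 and 1.31 CPM to 2.56, 4.94 and 8.09 CPM (log2 1.64 ± 0.52, adjusted p = 0.0352) and TGIF1, a SMAD corepressor, from 121, 83.4 and 117 CPM to 111, 176 and 261 CPM (log2 0.75 ± 0.28, adjusted p = 0.06). SMAD4 and TGIF1 did not pass when any 1 of the vehicle rats or TGFBRi 12 was left out, SMAD4 also not without TGFBRi 11 or 13, and TGFB2 did not without vehicle 2 or 3. Beside LP cells, at 34.6 to 58 CPM, the TGFB2 level in ML cells was low.

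**Figure D4:**
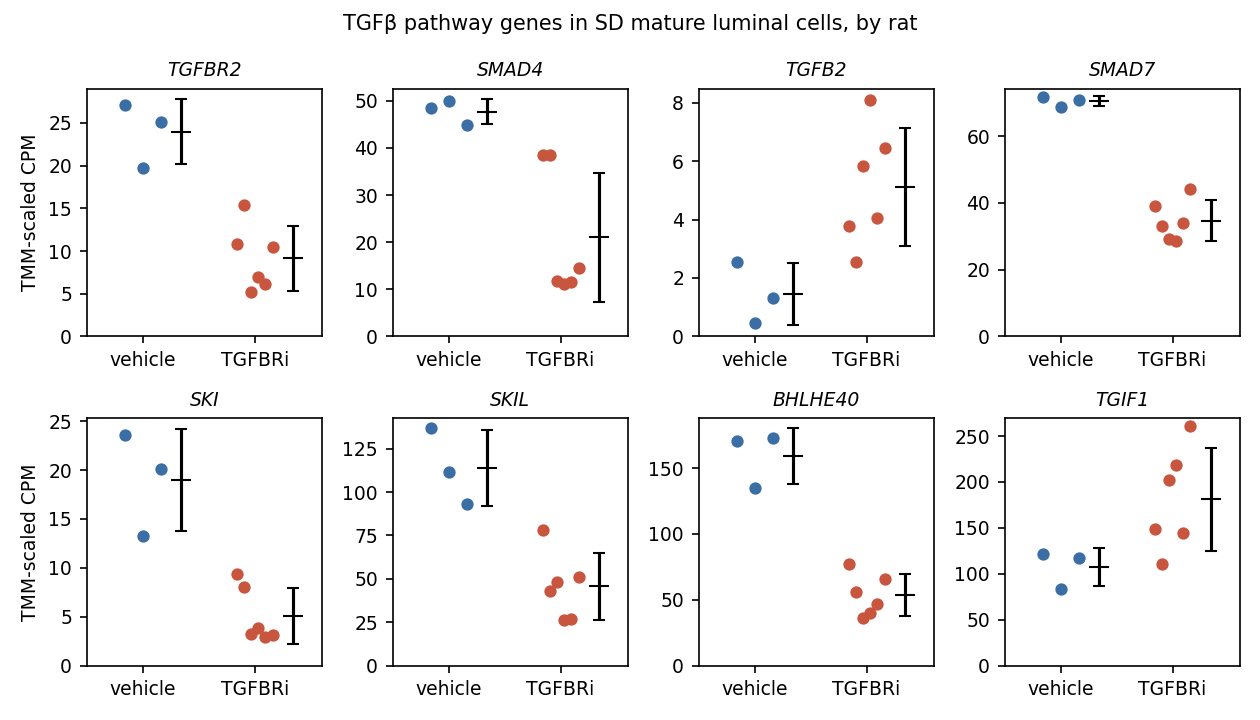
TMM-scaled CPM per rat of 8 genes of the TGFβ pathway in ML cells, with mean ± SD per group. TGFBR2, SMAD4, SMAD7, SKI, SKIL and BHLHE40 lie lower in all TGFBRi rats than in all vehicle rats, while TGFB2 and TGIF1 lie mostly higher.

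SKIL is one of the feedback genes that fell, and its promoter is shown for its regulatory letters (RefSeq, GRCr8, chr2:114203523-114203822, minus strand, the same window). Capitals mark TGACGTCA at base 198, the motif that also stands in the AREG promoter. The match is a description of these letters.
SKIL: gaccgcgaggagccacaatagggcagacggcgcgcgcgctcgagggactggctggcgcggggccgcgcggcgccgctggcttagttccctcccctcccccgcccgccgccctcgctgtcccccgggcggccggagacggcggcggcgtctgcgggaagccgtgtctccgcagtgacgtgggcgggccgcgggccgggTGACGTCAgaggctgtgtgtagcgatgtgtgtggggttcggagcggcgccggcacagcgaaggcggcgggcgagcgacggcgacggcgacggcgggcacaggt

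Of 11 hormone receptors tested, 1 rose and 2 fell (median log2 -0.33), and without 1 vehicle rat none rose and 1 or 2 fell. The 3 of 11 called stand against 31.8% of all genes tested. ESR1 was at 37.8, 47.7 and 33.8 CPM in vehicle rats and 8.47, 13.8 and 42.4 CPM in TGFBRi rats, and its change of -1.02 ± 0.44 did not pass the test (adjusted p = 0.113). It did pass with DESeq2 (adjusted p = 0.0665), with thinned cells (adjusted p = 0.0925) and without TGFBRi 9 or 10. PGR was at 54.2, 125 and 31.3 CPM and 11.3, 23.5 and 82.4 CPM (-0.87 ± 0.77, adjusted p = 0.324), with vehicle 2 well above the other vehicle rats. The groups overlapped for both. Those that fell were the insulin-family receptors, IGF1R from 2.05, 1.83 and 3.38 CPM to 0.429, 0.687 and 1.17 CPM (log2 -1.75 ± 0.55, adjusted p = 0.0197) and INSR from 14.5, 19.2 and 13.7 CPM to 6.02, 9.3 and 11.5 CPM (log2 -0.82 ± 0.26, adjusted p = 0.0334). Neither passed by summed counts of thinned cells, and INSR did not without vehicle 1 or 2. By the share of thinned ML cells with a UMI both did pass. INSR was found in 5.19, 6.92 and 3.28% of vehicle and 1.6 to 3.03% of TGFBRi ML cells (exact p = 0.0238, adjusted 0.0738). IGF1R was found in 0.241, 0.769 and 0.703% and 0 to 0.256%, with overlap (exact p = 0.0476, adjusted 0.0984). VDR was the receptor that rose, from 4.1, 5.96 and 5.81 CPM to 6.4, 8.25 and 11.2 CPM (log2 0.73 ± 0.29, adjusted p = 0.0588). ERBB4, a receptor for neuregulins and the 1 gene that fell among 12 EGF family genes, went from 19.8, 23.4 and 20.6 CPM to 6.67, 9.83 and 17.1 CPM (log2 -1.0 ± 0.31, adjusted p = 0.0328), a call lost without vehicle 1.

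Among 12 regulators of the ML lineage, 1 rose and 3 fell, a share near the 31.8% of all genes, and without 1 vehicle rat 0 or 1 rose and 2 or 3 fell. FOXA1 was at 9.48, 11.5 and 14.6 CPM in vehicle and 1.98, 3.21 and 6.35 CPM in TGFBRi rats (log2 -1.63 ± 0.39, adjusted p = 0.0174), without overlap. XBP1, a secretory-pathway transcription factor and oestrogen target, was at 92.5, 112 and 81 CPM and 25, 37.6 and 63.6 CPM (log2 -1.17 ± 0.30, adjusted p = 0.0198), also without overlap. TBX3 fell by 0.84 (adjusted p = 0.0349) with a slight overlap, while GATA3 was at 299.9, 302 and 269 CPM and 227, 305 and 445 CPM (0.12, adjusted p = 0.696). Of 10 hormone-induced paracrine genes, none rose and 3 fell (median log2 -0.55), a share near the 31.8% of all genes called. These were CXCL12, a chemokine induced by oestrogen (-1.48 ± 0.55, adjusted p = 0.0727), WNT5A, a non-canonical Wnt ligand (-1.33 ± 0.47, adjusted p = 0.0557) and INHBB, an activin and inhibin subunit (-0.87 ± 0.33, adjusted p = 0.0644). None of the 10 passed without vehicle 1 or 2 or without TGFBRi 11 and 12. AREG was at 1139, 4997 and 666 CPM and 1113, 1595 and 2664 CPM and WNT4 at 188, 279 and 120.4 CPM and 141, 244 and 302 CPM, with changes of -0.39 (adjusted p = 0.602) and 0.24 (adjusted p = 0.542). Vehicle 2 held the highest AREG level of all rats, and without it the AREG change was 0.94. Of 17 oestrogen-responsive genes 1 rose, the ubiquitin ligase SIAH2 (0.78, adjusted p = 0.0445), and 4 fell, among them NRIP1, a nuclear receptor corepressor (-0.78, adjusted p = 0.0624), and the receptor kinase RET (-0.55, adjusted p = 0.0516). Called genes of this list were thus 5 of 17, against 31.8% of all genes tested, and without 1 vehicle rat 0 to 2 rose and 1 to 3 fell.

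The share of ML cells with a UMI of a gene was compared after every cell was thinned to 3000 UMIs, which kept 6710 cells and left out 83 of vehicle and 88 of TGFBRi rats. Of 31 genes and cycle lists compared, 15 had an adjusted p of 0.1 or less in the exact permutation test. Most of these were lower in TGFBRi rats. The test was not run over all genes, so the count has no share of all genes beside it. TGFBRi ML cells also showed fewer genes at this depth, and the part of this in the shares was not tested. TGFBR2 was found in 8.44, 6.15 and 8.9% of ML cells in the vehicle rats and in 1.54, 2.15 and 5.13% in the lowest, median and highest TGFBRi rat (exact p = 0.0238, adjusted 0.0738). TGFBR1, whose summed level did not pass, was found in 11.8, 15.4 and 10.3% and 5.38, 8.37 and 9.69% without overlap (exact p = 0.0238, adjusted 0.0738). At full depth its groups overlapped (exact p = 0.286). CXCL12 was found in 7.24, 3.85 and 5.15% and 0.336, 1.51 and 3.8% (exact p = 0.0238, adjusted 0.0738), and INHBB in 14.8, 10.8 and 19% and 2.69, 6.47 and 9.48% with the same p. ESR1 was found in 13.3, 13.8 and 10.5% and 2.57, 3.24 and 12% (exact p = 0.0476, adjusted 0.0984). PGR was found in 15.4, 40.0 and 10.3% and 4.08, 6 and 22.2% (exact p = 0.286). In LP cells, which should lack both receptors, ESR1 and PGR were each found in 0 to 0.634%, which marks the background. At full depth, with PGR in 35.8, 74.5 and 28.3% of vehicle ML cells and a median of 21% in TGFBRi rats, 10 of the 31 had an unadjusted exact p under 0.05 and none an adjusted p of 0.1 or less. No comparison passed when any 1 of the vehicle rats or TGFBRi 9, 11 or 12 was left out, where fewer splits of the rats remain.

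Within ML cells, AREG was found with and without PGR. At 3000 UMIs per cell, AREG was found in 64.8 to 97% of ML cells with a PGR UMI and in 61.4 to 98.7% of those without. ESR1 was found in 0 to 16.4% and 2.5 to 15.4%. These shares are within rats and carry no test, since capture misses most transcripts of a low gene.

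Few immediate early genes changed. Of 31 tested none rose and 4 fell (median log2 -0.24), where 15.6% of all genes tested were called lower. None of them passed without vehicle 1 and 1 without vehicle 3. DESeq2 gave 2 higher and 5 lower, and thinned cells 2 higher and 4 lower. FOS, a subunit of the AP-1 factor, was at 5567, 3929 and 4747 CPM in vehicle and 1059.9, 2505 and 3614 CPM in TGFBRi rats (log2 -1.02 ± 0.35, adjusted p = 0.0568). FOSB, its relative, was at 2555, 2412 and 3214 CPM and 931, 1488 and 2199 CPM (log2 -0.84 ± 0.27, adjusted p = 0.0399). SOCS3, a feedback inhibitor of cytokine receptors, was at 72.5, 49 and 42.6 CPM and 5.3, 14.9 and 29.8 CPM (log2 -1.75 ± 0.43, adjusted p = 0.0204). None of these overlapped. JUN (-0.53) and EGR1 (-0.69) did not pass the test, both with adjusted p = 0.153. In thinned cells both did pass by the share of cells with a UMI. EGR1 was found in 77.2, 80 and 77.05% of vehicle and 42.4, 55.7 and 76.9% of TGFBRi ML cells (exact p = 0.0238, adjusted 0.0738). JUN was found in 97.9, 99.2 and 99.1% and 88.2, 92.9 and 97.6% with the same p, and the groups were apart for both, though not at full depth. Of 17 circadian clock genes none rose and 4 fell, among them PER1 (-1.67 ± 0.41, adjusted p = 0.0172) and BHLHE40, which the TGFβ target list also holds. The 4 of 17 called are below the 31.8% of all genes, and without 1 vehicle rat 2 or 3 fell.

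Milk genes rose in ML cells. Of 17 tested 14 rose and none fell, with a median log2 change of 2.04, where 16.2% of all genes tested were called higher. Without 1 vehicle rat, whichever it was, 8 rose, and without TGFBRi 11 and 12 it was 13. CSN1S1, the main calcium-sensitive casein, was at 195, 54.5 and 188 CPM in vehicle and 717, 1555 and 5464 CPM in TGFBRi rats (log2 3.86 ± 0.76, adjusted p = 0.0119). WAP was at 3.59, 0.458 and 2.63 CPM and 29.8, 47.6 and 90.2 CPM (log2 4.43 ± 0.46, adjusted p = 0.00313). MFGE8, a milk fat globule protein, was at 207, 88.5 and 176 CPM and 336, 539 and 783 CPM (log2 1.82 ± 0.30, adjusted p = 0.0119). Every TGFBRi rat was above every vehicle rat for all of these, as for OLAH, which ends the synthesis of medium-chain fatty acids (2.47 ± 0.34, adjusted p = 0.00955). GLYCAM1 was at 0.384, 0.458 and 2.25 CPM and 1.83, 113 and 17085 CPM, and its highest value, in rat 11, was far above the other rats.

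These levels were small beside those of LP cells in the same libraries. The summed milk genes stood at 387 to 1794 CPM in ML cells of vehicle rats, at 3241 to 24699 CPM in those of TGFBRi rats, and at 31939 to 100740 CPM in LP cells. As a percent of the LP level of the same rat, CSN1S1 in ML cells was 0.713 to 4.77% in vehicle and 5.78 to 10.3% in TGFBRi rats. MFGE8 was 2.14 to 7.29% and 7.17 to 13.6%, and WAP 0.246 to 3.86% and 3.14 to 9.87%. Of 7 milk genes compared in this way, the share did not overlap between groups for CSN1S1, LALBA, OLAH and TF, and overlapped for CSN3, MFGE8 and WAP. This percent was not computed over all genes, so the count has no background to stand against. The part of free RNA from LP cells in the milk result was not tested.

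Many cell cycle genes rose, S phase genes less steadily than G2/M genes. Of 50 G2/M genes tested 33 rose and 1 fell (median log2 2.01), and of 41 S phase genes 23 rose and 2 fell (median 0.88). Among all genes tested, 16.2% were called higher and 15.6% lower. Without 1 of the vehicle rats, or without TGFBRi 11 and 12, 28 to 30 of the G2/M genes rose, but of the S phase genes 6 to 9. In these settings 10.7 to 17.4% of all genes tested were called, both directions together. With thinned cells 27 G2/M genes rose, while 6 S phase genes rose and 3 fell. Without TMM scaling, the summed S phase genes overlapped, at 546 to 579 CPM in vehicle and 433 to 821 CPM in TGFBRi rats (exact p = 0.238). So did the G2/M genes, at 804 to 917 CPM and 868 to 1660.0 CPM (exact p = 0.0714). The TMM factors were 1.12 to 1.18 in vehicle and 0.817 to 1.07 in TGFBRi rats. Scaling by them lowers every vehicle sum, and whether the scaled sums overlap was not tested. CDK1, the mitotic kinase, was at 2.56, 0.458 and 0.75 CPM in vehicle and 4.29, 25.1 and 39.2 CPM in TGFBRi rats (log2 3.92 ± 0.63, adjusted p = 0.0125), without overlap. MCM6, a subunit of the replicative helicase, was at 5.38, 7.79 and 5.81 CPM and 8.02, 22.8 and 43.1 CPM (log2 2.00 ± 0.47, adjusted p = 0.0247), also without overlap. MKI67, a marker of cycling cells, was at 5.51, 4.12 and 3.56 CPM and 4.72, 29 and 59.5 CPM (log2 2.78 ± 0.54, adjusted p = 0.0179). In thinned cells CDK1 was found in 0.724, 0 and 0.234% of vehicle and 0.736, 3.65 and 5.41% of TGFBRi ML cells (exact p = 0.0238, adjusted 0.0738), so most ML cells showed none in either group. The share of cells with at least 3 UMIs of the G2/M list, some widely expressed members left out, was at this depth 5.42% in vehicle and 10.4% in TGFBRi rats (exact p = 0.0714, adjusted 0.13) and for the S phase list 13.4 and 14.3% (exact p = 0.69). Neither passed, nor did they at full depth, where the G2/M means were 40.2 and 42.7% (exact p = 0.667). CDK4, the G1 kinase, rose by a log2 of 1.38 (adjusted p = 0.0153) and RB1, the retinoblastoma tumour suppressor that it phosphorylates, fell by 1.38 (adjusted p = 0.0624).

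Chaperone and metabolic stress genes rose in part. Of 17 heat shock chaperones 7 rose and none fell, and of 14 oxidative stress genes of the NRF2 program 5 rose and none fell. Of 17 genes of the integrated stress response 6 rose and 1 fell. Among all genes tested, 16.2% were called higher and 15.6% lower. Without 1 vehicle rat these counts of higher genes were 3 to 5, 4 to 5 and 3 to 5. HSPA8, the constitutive HSP70, was at 1214, 1462 and 1454 CPM in vehicle and 2017, 2769 and 3356 CPM in TGFBRi rats (log2 0.98 ± 0.18, adjusted p = 0.0124). HSPE1, the cochaperonin of mitochondria, was at 74.1, 97.6 and 122 CPM and 151, 236 and 374 CPM (log2 1.33 ± 0.28, adjusted p = 0.0147). Neither overlapped. The summed chaperones, without TMM scaling, were at 17286 to 21750 CPM and 15015 to 25393 CPM and overlapped widely. Their overlap after scaling was not tested. FTH1, the heavy chain of the iron store ferritin, was at 4332, 5517 and 4383 CPM and 11652, 14602 and 29274 CPM (log2 1.90 ± 0.30, adjusted p = 0.0103), and FTL1, the light chain, at 140.3, 176 and 172 CPM and 300.3, 454 and 554 CPM (log2 1.49 ± 0.21, adjusted p = 0.00724). PRDX1, a peroxide-reducing enzyme, rose by 0.99 (adjusted p = 0.0123) and the first enzymes of serine synthesis, PHGDH and PSAT1, by 3.27 (adjusted p = 0.02) and 2.40 (adjusted p = 0.0201). The transcription factor ATF4 rose by 0.60 (adjusted p = 0.0639).

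The promoter of HSPE1 is shown for the letters of a heat shock motif in it (RefSeq, GRCr8, chr9:64084077-64084376, plus strand, the same window). Capitals mark TTCNNGAA, a pair of inverted heat shock units that reads the same on both strands, with matches at bases 186 and 196. The motif stood in 2935 of 33469 promoters of this length (8.77%).
HSPE1: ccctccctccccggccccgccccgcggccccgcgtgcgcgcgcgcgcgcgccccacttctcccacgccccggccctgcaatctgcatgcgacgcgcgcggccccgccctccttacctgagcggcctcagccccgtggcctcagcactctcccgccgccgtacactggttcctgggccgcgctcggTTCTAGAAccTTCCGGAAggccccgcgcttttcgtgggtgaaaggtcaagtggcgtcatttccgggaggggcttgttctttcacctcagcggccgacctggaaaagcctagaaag

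Of 25 chemokines and cytokines 6 rose and CXCL12 fell, below the 31.8% of all genes called, and without vehicle 2 or 3 none was called. CXCL1, a neutrophil attractant, was at 452, 272 and 187 CPM in vehicle and 583, 918 and 3358 CPM in TGFBRi rats (log2 2.05 ± 0.63, adjusted p = 0.0305). The highest CXCL1, CXCL2 and CXCL3 levels were all in TGFBRi rat 14. Of 24 interferon-stimulated genes 9 rose and 2 fell, where 16.2% of all genes were called higher and 15.6% lower (4 to 6 rose without 1 vehicle rat), with IFI27 at 591, 534 and 589 CPM and 965, 1016 and 1606 CPM (log2 1.0 ± 0.21, adjusted p = 0.0135) and TAP1, a peptide transporter of antigen presentation, at 52.6, 48.1 and 46.3 CPM and 74.1, 91.3 and 129 CPM (log2 0.96 ± 0.22, adjusted p = 0.0143). Both were without overlap.

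Of 23 epithelial junction genes 5 rose and 6 fell, where 16.2% of all genes tested were called higher and 15.6% lower, and without 1 vehicle rat 1 or 2 rose and 4 to 6 fell. CTNNB1, the β-catenin of adherens junctions and Wnt signalling, was at 70.7, 73.3 and 74.6 CPM in vehicle and 11.2, 16.1 and 45.4 CPM in TGFBRi rats (log2 -1.61 ± 0.43, adjusted p = 0.0261). CGN, the tight junction protein cingulin, was at 35.7, 36.7 and 34.7 CPM and 21.5, 22.2 and 23.8 CPM (log2 -0.67 ± 0.15, adjusted p = 0.014). DSP, high in ML against LP cells, fell by 1.12 (adjusted p = 0.018), while the connexin GJB2 rose by 1.81 (adjusted p = 0.0249) and the claudin CLDN3 by 0.85 (adjusted p = 0.0584). Of 5 luminal keratins 2 rose (1 when any 1 vehicle rat was left out), KRT18 from 2069.7, 1835 and 1959 CPM to 2399, 3525 and 4857 CPM (log2 0.84 ± 0.23, adjusted p = 0.0261) and KRT8 by 0.70 (adjusted p = 0.0687).

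Basal markers were low in ML cells and higher in TGFBRi rats, and fibroblast markers were high in some of these rats. Of 11 basal markers tested 3 rose (2 or 3 without 1 vehicle rat) and none fell, where 16.2% of all genes tested were called higher. Their sum was 7.54 to 15.9 CPM in vehicle rats and 21.8 to 85.9 CPM in TGFBRi rats (exact p = 0.0238), against 56.2 to 180 CPM in LP cells. KRT14, the basal keratin, was at 0 in every vehicle rat and at 0.183, 0.514 and 0.733 CPM in TGFBRi rats, at least 2.65-fold higher against a floor of 3 counts over the vehicle group. KRT17 rose from 6.4, 2.29 and 3 CPM to 9.77, 25.5 and 65.1 CPM (log2 2.93 ± 0.55, adjusted p = 0.0153). Of 9 fibroblast markers 3 rose, COL1A1, COL3A1 and DCN, and their sum was at most 1.72 CPM in vehicle rats and at 83.6, 327 and 137 CPM in TGFBRi rats 9, 10 and 12, but at 1.17 to 4.6 CPM in the other three. COL1A1 itself was at 0.256, 0 and 0 CPM and 0.32, 19.8 and 136 CPM, a ratio of 229 (exact 95% counting interval 63.4 to 1895). No fibroblast marker was called when any 1 of the vehicle rats was left out. With cells holding a fibroblast UMI left out, 4252 genes were called in place of 4248, and with cells holding a basal keratin UMI left out 4167, the first setting chosen after the data were seen. None of 7 leukocyte and 4 endothelium markers tested was called. Leukocyte markers summed to 12.6 to 55.2 CPM in vehicle and 20.6 to 166 CPM in TGFBRi rats, with PTPRC at 0 throughout, and endothelium markers to 26.8 to 51.7 CPM and 19.8 to 35.1 CPM. Both overlapped (exact p = 0.214 and 0.262). Beyond leaving out those cells, the part of other cells in the results was not tested.

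LP cells of the same rats and libraries had 3842 of 13257 genes called (29%), a count that was 2, 196 and 56 without vehicle 1, 2 or 3 and 2470 without TGFBRi 13. The treatment effect differed between ML and LP cells for 4 of 14365 genes (0.0278%), 1 higher in ML cells (0.00696%) and 3 lower (0.0209%), in a fit with the rat as block. DESeq2 gave 133, and leaving out 1 rat gave 0 to 28, 28 without TGFBRi 10 and 0 when any 1 vehicle rat or TGFBRi 9 or 11 was left out. ACSL3, an activator of long-chain fatty acids, was lower in TGFBRi ML cells, at 155, 129.7 and 109 CPM in vehicle and 30.8, 58.4 and 92.4 CPM in TGFBRi rats (-1.12 ± 0.32), and gave 0.65 in LP cells, a difference of -1.68 (adjusted p = 0.0748). TNFRSF19, a receptor of the tumour necrosis factor family, was at 37.8, 28.4 and 47.3 CPM and 11.2, 18 and 26 CPM (-1.0 ± 0.28) and gave 1.12 in LP cells, a difference of -2.05 at the same p. PGM3, an enzyme of UDP-N-acetylglucosamine synthesis, gave 0.47 in ML and 1.99 in LP cells. Side by side, milk genes gave 14 higher of 17 in ML and 9 higher and 1 lower of 17 in LP cells, G2/M genes 33 and 27 higher of 50, and heat shock chaperones 7 higher of 17 in both. SMAD7 gave -1.02 and -1.24, and FTH1 1.90 and 0.79. Hormone receptors gave 1 higher and 2 lower of 11 in ML cells, and none higher and 7 lower of 11 in LP cells.

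ACI rats were a separate set of animals, in which 3437 of 12780 genes were called in ML cells (26.9%), and 1837 without vehicle 7. Of the genes higher in SD ML cells and tested in ACI, 1051 of 2120 were also called higher there (49.6%, and 57.1% of the 1841 called in ACI), where 14.4% of all genes tested in ACI were called higher, and 11 were called lower. Of those lower in SD, 923 of 2064 were called lower in ACI (44.7%, and 58.4% of 1580), against 12.5% of all genes, and 17 higher. The effect of treatment differed between strains for 20 of 13855 genes (0.144%), with 5 higher in SD (0.0361%) and 15 lower (0.108%), and DESeq2 gave 223. Strain, age at the first dose (24 days in SD, 35 in ACI) and cohort cannot be told apart in this comparison. Leaving out 1 rat gave 3 to 113, the highest without SD TGFBRi 9. Milk genes rose in ACI too, 13 of 16 tested with a median log2 of 1.86, among them WAP (5.47, adjusted p = 0.000445) and CSN1S1 (2.39, adjusted p = 0.000488). TGFBR2 gave -0.71 (adjusted p = 0.00524), SKI -1.03 (adjusted p = 0.000603) and BHLHE40 -0.91 (adjusted p = 0.00149). SKIL gave -0.61 (adjusted p = 0.0284), while SMAD7, at -0.28, did not pass in ACI (adjusted p = 0.249). The G2/M genes gave 3 higher and 2 lower of 50 in ACI beside 33 and 1 in SD, and the difference of the list was not tested. UBE2C, KIF20A and BUB1, a spindle checkpoint kinase, passed the test of the difference, at 5.90, 5.52 and 4.00 (adjusted p = 0.0883, 0.0977 and 0.0977). These calls were lost in most settings with 1 rat left out: no gene was called higher in SD without SD vehicle 1, SD TGFBRi 11, 12 or 13, ACI vehicle 7 or 8, or ACI TGFBRi 15 or 16. Of 17 heat shock chaperones 1 rose in ACI. Of 11 hormone receptors 6 fell in ACI and none rose.

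ML cells of whole SD glands came from other rats and from a 5′ library chemistry, while the sorted libraries were 3′. In them 3879 of 14459 genes were called (26.8%). Of the genes higher in sorted ML cells and tested here, 351 of 2159 were also called higher (16.3%, and 21.0% of the 1669 called) and 397 lower (18.4%), where 11.9% of all genes tested in whole glands were called higher and 14.9% lower. Of those lower, 201 of 2051 were also called lower (9.80%, and 9.92% of 2026) and 299 higher (14.6%). The effect differed between sorted and whole-gland cells for 4409 of 15019 genes (29.4%), a comparison added after the data were seen, and sorting, chemistry, cohort and processing cannot be told apart in it. No value computed here checks the treatment labels of either set. BHLHE40 and TGFBR2 were lower in whole glands too (-0.78, adjusted p = 0.0102, and -0.48, adjusted p = 0.023). ID1 was lower as well (-1.07, adjusted p = 0.0372), and of 37 target and feedback genes tested there 1 rose and 12 fell (median log2 -0.37). SMAD7, SKI and SKIL did not pass in whole glands, where SMAD7 gave 0.37 (adjusted p = 0.182), SKI 0.37 (adjusted p = 0.338) and SKIL 0.20 (adjusted p = 0.584). The difference of these 3 genes from sorted cells passed the test, with adjusted p = 0.00113, 0.00351 and 0.0131. TGIF1, higher in sorted cells, was lower in whole glands (-0.69, adjusted p = 0.00147). CXCL1, CXCL2 and CXCL3, higher in sorted cells, were lower in whole glands (-1.50, -1.70 and -3.31), as were FTL1 (-0.75) and PRDX1 (-0.47), all with adjusted p of 0.1 or less. The NRF2 list gave none higher and 10 lower of 14 in whole glands, and the integrated stress response list none higher and 10 lower of 17. Milk genes gave 3 higher and 1 lower of 17 in whole glands, with CSN1S1 at -0.28 (adjusted p = 0.758). PGR, for which sorted cells gave -0.87, gave -1.16 (adjusted p = 0.022), and ESR1 gave 0.81 (adjusted p = 0.028).

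**Figure D5:**
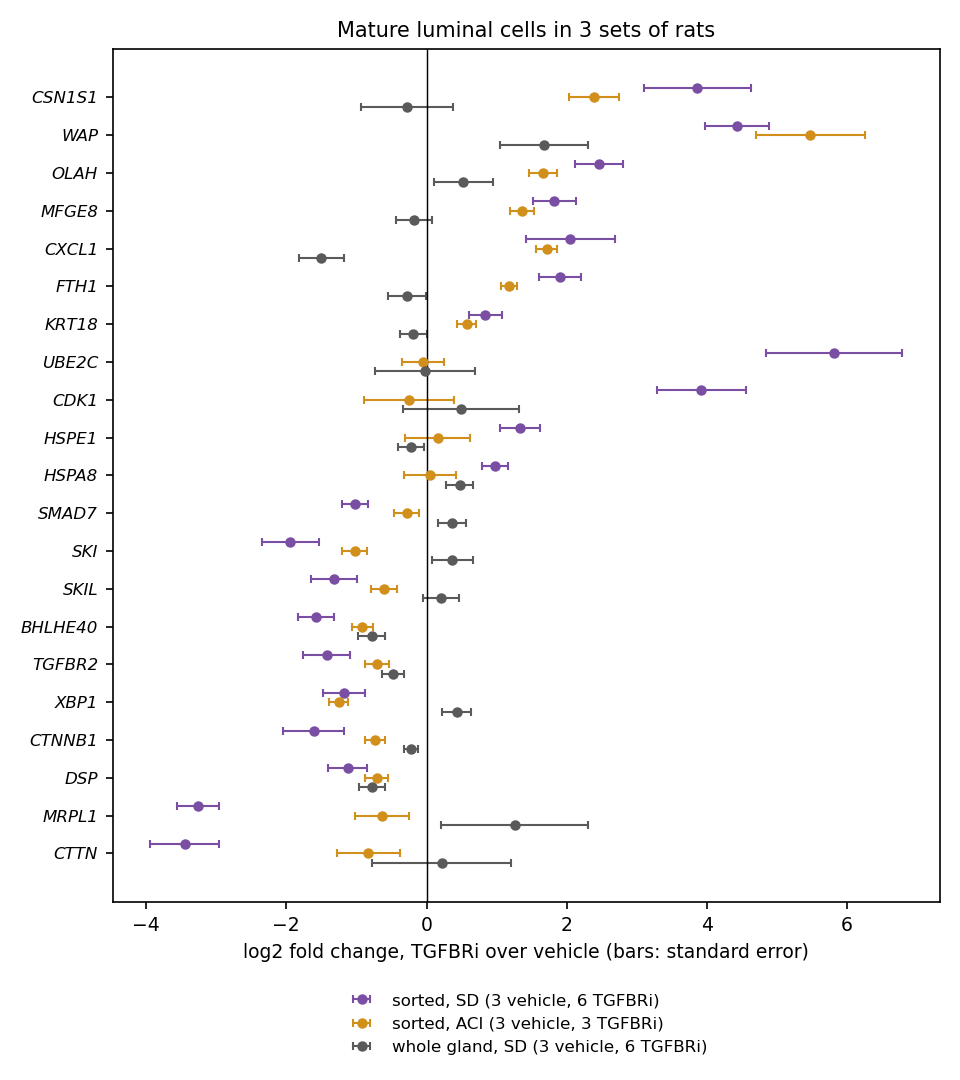
Log2 fold change (TGFBRi over vehicle) ± standard error of 21 genes in ML cells of sorted SD, sorted ACI and whole-gland SD libraries. CSN1S1 and WAP lie above 0 in both sorted sets, UBE2C at 5.81 in sorted SD, -0.05 in ACI and -0.03 in whole-gland cells, and CXCL1 above 0 in both sorted sets and below 0 in whole glands.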

How the data were processed

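The deposited tables hold raw UMI counts per gene and cell of 1 library each. Per the study's methods, the authors made them from 10x 3′ libraries (5′ for whole glands), kept cells with at most 15% mitochondrial UMIs, and in sorted cells removed those with a PTPRC read or under 2 keratin reads. The methods also describe taking out the few sorted cells whose cluster was almost wholly of the other sorted fraction. Low basal markers in ML cells are to be read with that step in mind. The submitters' processing notes name Cell Ranger 4.0.0 and 7.0.0, Seurat 4.0.0 and 4.1.1 and the rn6 genome. The same PTPRC and keratin filters were applied here to whole-gland cells.

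Cells were classed by the UMI rule, and the UMI counts of a class were summed per rat. Genes with a summed count of at least 10 were compared with edgeR 4.0.16 (quasi-likelihood test, TMM, R 4.3.3), with Benjamini-Hochberg adjusted p of 0.1 or less as the threshold, the value the study uses for single cells. Standard errors came from DESeq2 1.42.0, also an alternative. The scripts were tested on simulated data. Differences of effect were tested as interaction terms, with the rat as a block between ML and LP cells, whose sums come from the same animals. Single values were compared by exact permutation over rats. P-values measure the spread between these rats. Intervals and floors cover counting error only. Doublets were scored by Scrublet (scanpy 1.11.5), which called 19.3% of cells in TGFBRi 11, 10.8% in TGFBRi 13 and 0 to 2.74% in the other libraries. All were kept, and leaving out the highest 6% of scores was an alternative. That alternative still keeps part of the called cells of TGFBRi 11 and 13.

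The members and lists were chosen with earlier results of these data known. Named were the 10 genes per direction with the largest fold change that passed the threshold, averaged at least 20 UMIs per rat in the higher group and did not overlap between groups (2614 genes met these criteria; rule genes, locus identifiers and mitochondrial genes were left out), besides rule genes, check markers and members of the lists. For ML against LP cells they were drawn, rule genes again left out, from the 15 per direction with the largest median ratio, a mean of at least 100 CPM and the same sign in 9 of 9 rats. Promoters came from RefSeq (GRCr8), a build other than that of the files. Some genes that these rules select are not reported here. Basal and bulk samples were not used here.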

Additional observations from a re-analysis of the deposited data

Results flagged for a closer look

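In 174 measures of the 6 TGFBRi rats, 20 values stood apart from the other 5 rats by Dixon's criterion, and chance alone gives about 1 in 20. Rat 11 held 9 of them, rat 14 held 8, and rats 9, 12 and 13 held 1 each. Scrublet called 19.3% of the cells of rat 11 and 10.8% of those of rat 13 doublets, against 0 to 2.74% in the other sorted SD luminal libraries. The part of doublets in these values was not tested. Rat 11 was highest for the summed milk genes at 24699 CPM, for CSN1S1 at 5464 CPM, GLYCAM1 at 17085 CPM, OLAH at 488 CPM, FABP3 at 123 CPM and WFDC3 at 8.87 CPM. The same rat was highest for the interferon-stimulated genes ISG15 at 80.2 CPM and OAS1A at 33.5 CPM, and a UMI of the peptide hormone gene CALCA was found in 0.448% of its thinned cells. Rat 14 was highest for the chemokines CXCL1 at 3358 CPM, CXCL2 at 1282 CPM and CXCL3 at 2275 CPM, and for CLDN4 at 4653 CPM, ATF4 at 1647 CPM, NPTX2 at 15.2 CPM and TGFBR1 at 42.8 CPM. MYC was found in 37.2% of its thinned cells. Rat 12 was highest for LMO1 at 14.6 CPM. Rat 9 was highest for WNT5A at 9.77 CPM, and rat 13 was lowest for TGFBR1, found in 5.38% of its thinned cells.

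The effect of treatment differed between ML and LP cells for 4 genes in edgeR with the rat as block, among them ACSL3 at -1.68, PGM3 at -1.44 and TNFRSF19 at -2.05 (log2, ML minus LP, adjusted p = 0.0748 for each). It differed between SD and ACI ML cells for 20 genes. Of these, 5 had a higher log2 fold change in SD than in ACI, among them UBE2C at 5.90, KIF20A at 5.52 and BUB1 at 4.00, all genes of mitosis, and RT1-CE5, a class I histocompatibility gene with close copies, at 1.45. The log2 fold change was lower in SD by the same test, as SD minus ACI, for B3GALT2 at -3.68, MRPL1 at -2.60, KPNA5 at -1.92, PHACTR4 at -1.84, CTNNAL1 at -1.47, WDR45B at -1.45, MINK1 at -1.36, TRA2A at -1.27, EIF3J at -1.19, PRPF4B at -1.11, CNOT3 at -1.05 and WDR43 at -1.01. It differed between sorted and whole-gland ML cells for 4409 genes.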

How the results depend on the processing

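The count of genes called in SD ML cells was 3039 with thinned cells and between 3917 and 4493 with DESeq2, another scaling, other filters on counts, a stricter or looser rule, or without doublet-like cells, cells with basal keratin UMIs or cells with fibroblast UMIs. Leaving out 1 rat gave 1417 to 5097, and leaving out TGFBRi rats 11 and 12 gave 1869. The LP count ran from 2 to 4965 with 1 rat left out (196 without vehicle 2, 56 without vehicle 3, 2470 without TGFBRi 13), and the ACI count from 1837 without vehicle 7 to 3534. The ML and LP difference gave 133 genes with DESeq2, 0 without the replicate block (2 classes of the same rat) and 0 to 28 with 1 rat left out, the highest without TGFBRi 10. The strain difference gave 223 with DESeq2 and 3 to 113 with 1 rat left out, 113 without SD TGFBRi 9 and 98 without SD TGFBRi 14. In whole glands the count was 3879 with all rats, 2223 with the rats numbered 1, 2 and 4 only, a setting chosen after the data were seen, and 1148 with a replicate block over those same rats. Same-numbered rats correlated at 0.027, -0.238 and 0.025, and rats of other numbers at -0.277 to 0.245. With so few rats these values cannot settle whether the numbers pair the rats. No paired analysis was possible between the treatments of the sorted libraries because vehicle and TGFBRi rats share no number. The difference in the ML share ran from 6.54 to 12.9 points with 1 rat left out. The 15 shares that passed became 0 at full depth and 0 to 12 with 1 rat left out. The smallest possible exact p was then 0.0714 without a vehicle rat and 0.0357 without a TGFBRi rat. The leave-out counts of shares therefore say little about stability. Among the called genes followed through the alternatives, 1990 of 2192 values kept direction and threshold, 202 kept direction only and none reversed. Of these 110 genes, 54 passed in every alternative. Of 15 followed genes that did not pass, 3 did with DESeq2, with thinned cells and without TGFBRi 9 or 10, 2 without TGFBRi 13 and 1 without TGFBRi 14. Among them the direction turned for GATA3 (log2 -0.0035 without TGFBRi 14 to 0.20 without TGFBRi 12), AREG (-0.83 without vehicle 3 to 0.94 without vehicle 2) and WNT4 (-0.0154 without vehicle 3 to 0.58 without vehicle 2). The cause of these shifts was not tested. Depth limits genes with a few UMIs per rat, vehicle 2 most, with 141 ML cells.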

Other observations

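Of 23 cholesterol synthesis genes 2 rose and 4 fell in ML cells, below the 31.8% of all genes tested that were called, and without 1 vehicle rat 0 or 1 rose and 0 to 4 fell. Among those that fell were LSS, lanosterol synthase (-0.85 ± 0.27, adjusted p = 0.0343), and CYP51, the next enzyme of the path (-0.74 ± 0.26, adjusted p = 0.0445). In whole glands 13 of the 23 rose and none fell, where 11.9% of all genes tested there were called higher. In ACI rats 8 rose and none fell, where 14.4% were called higher. Of 16 fatty acid genes 4 rose and 3 fell, where 31.8% of all genes tested were called. Without 1 vehicle rat 1 to 3 rose and 0 to 2 fell. THRSP, a promoter of lipogenesis in mammary epithelium, was at 8.96, 5.04 and 7.88 CPM in vehicle and 30.5, 42.8 and 153 CPM in TGFBRi rats without overlap (log2 3.25 ± 0.67, adjusted p = 0.0138) and gave 2.52 in ACI rats (adjusted p = 0.000749), while ACACA, the enzyme that commits acetyl-CoA to fat, fell by 0.93 (adjusted p = 0.0899).

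Of 14 glucocorticoid-responsive genes 5 rose and 2 fell, where 31.8% of all genes tested were called. With any 1 vehicle rat left out 1 rose and 1 fell. FKBP5, a cochaperone of steroid receptors, was at 1.28, 4.12 and 3 CPM and 2.15, 13.5 and 71 CPM with overlap (log2 3.42 ± 1.03, adjusted p = 0.0454), and gave 0.08 in LP (adjusted p = 0.902) and 2.87 in ACI ML cells (adjusted p = 0.00429). Of 12 IGF axis genes 1 rose and 3 fell, of 21 Wnt genes 1 rose and 4 fell, and of 13 Notch genes 1 rose and 2 fell, where 31.8% of all genes tested were called. Without 1 vehicle rat 1 or 2 of the IGF axis genes, 0 to 2 of the Wnt genes and 0 to 2 of the Notch genes fell. SFRP1, a secreted Wnt antagonist, was at 8.58, 7.79 and 7.31 CPM and 12.4, 17 and 31.9 CPM (log2 1.30 ± 0.34, adjusted p = 0.0207), and LGR4, a receptor that raises Wnt signalling, at 15.2, 10.1 and 15.9 CPM and 3.5, 5.53 and 9.7 CPM (log2 -1.16 ± 0.33, adjusted p = 0.0266), both without overlap. JAG1, a Notch ligand, fell by 0.82 (adjusted p = 0.0286) and NUMB, an inhibitor of Notch, by 1.18 (adjusted p = 0.0381). Of 19 G1 regulators and CDK inhibitors 5 rose and 2 fell, against the same 31.8% of all genes. Without 1 vehicle rat 1 to 4 rose and 0 or 1 fell. Of 40 extracellular matrix genes 7 rose and 1 fell, below the 31.8% of all genes called, and without 1 of the vehicle rats 2 rose. Without vehicle 1 none of the Notch genes was called.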
